A study of Mus musculus with 6 samples.

Results

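Genes that make, sense or remove extracellular ATP and adenosine were followed in induced regulatory T cells (iTreg cells) with and without the microRNA miR-31. The genes were 9: Entpd1, Nt5e, Adora2a, Ada, Dpp4, P2rx7, P2rx4, Pde3b and Pde4b. They were found by gene symbol and were read by 21 of the 41174 probes of a one-colour whole mouse genome array, which carries 27376 gene names in all. The control group was 3 miR-31fl/fl mice, in which the miR-31 gene is flanked by loxP sites but intact. The cKO group was 3 miR-31fl/flCD4Cre mice, which carry the same floxed alleles plus a Cre recombinase driven by the CD4 promoter. The deletion is kept by every cell that has once expressed CD4 and by its progeny, not by regulatory T cells alone. Because the transgene was present in cKO mice alone, an effect of Cre cannot be told apart from one of the deletion. All mice were 6 weeks old and of C57BL/6 background. The starting cells were splenic naive T cells sorted as CD4+CD25-Foxp3gfp-CD62Lhi. They were activated by anti-CD3 on the plate at 5 μg/ml and anti-CD28 in solution at 2 μg/ml, and TGF-β1 (5 ng/ml) and IL-2 (40 ng/ml, as the labels give it) were added to polarize them towards iTreg cells. RNA was taken after 4 days, and the culture of each mouse was read on 1 array.

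ATP that leaves activated or damaged cells opens P2X receptors, which are cation channels of the T cell membrane. CD39, encoded by Entpd1, trims ATP and ADP to AMP, and CD73, encoded by Nt5e, turns AMP into adenosine. Mouse regulatory T cells are known to carry both enzymes, and the adenosine they form acts through the A2a receptor (Adora2a), which raises cyclic AMP (cAMP) in the responding cell. Adenosine deaminase (Ada) removes adenosine by converting it to inosine. Phosphodiesterases such as Pde3b and Pde4b end the signal inside the cell by degrading cAMP.

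At their brightest probes, 0 of the 9 genes differed between cKO and control iTreg cells after adjustment over the 22281 tested probes (limma, Benjamini-Hochberg, adjusted p under 0.05), a threshold that 0.242% of all tested probes passed. The smallest p was at P2rx7, the ATP-gated channel that can trigger T cell death, whose signal was 1.43-fold higher in control cells. P2rx4 was 1.41-fold higher in cKO cells. Adora2a was 1.58-fold higher there at its brighter probe, while its second probe was lower (a log2 difference of −0.38). The enzymes that form adenosine, Entpd1 and Nt5e, and the one that removes it, Ada, overlapped between the genotypes. In Nt5e, Adora2a, P2rx4, Pde3b, Pde4b and Dpp4 the highest of all 6 values came from the same array, cKO array 3. These are bulk samples, in which fewer cells of a type and less RNA per cell cannot be told apart.

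The locus removed in the cKO mice encodes both arms of miR-31, from which the binding seed (bases 2 to 8, in capitals) sets the targets. They are shown because the genotype consists in their loss; RefSeq (GRCm38.p6) places them on the minus strand at chr4:88910614-88910635 and chr4:88910577-88910599.
mmu-miR-31-5p: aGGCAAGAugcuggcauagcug
mmu-miR-31-3p: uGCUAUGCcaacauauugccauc
No probe of the array is named for miR-31, so its loss could not be checked in these cells. The second probes of 3 receptor genes are shown as well, because the results below set each beside the first probe of its gene. The Adora2a probe lies at chr10:74795972-74796031, the P2rx7 probe is split over chr5:123120528-123123413 and so crosses at least 1 intron, and the P2rx4 probe lies at chr5:123177761-123177820 (all plus strand, mm9 positions from the array's annotation). Each is 60 bases long, with no part singled out in capitals.
Adora2a second probe: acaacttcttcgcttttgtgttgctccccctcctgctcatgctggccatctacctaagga
P2rx7 second probe: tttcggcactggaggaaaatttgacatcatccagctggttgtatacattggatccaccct
P2rx4 second probe: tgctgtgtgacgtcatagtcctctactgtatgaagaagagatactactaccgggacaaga

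All values below are on a log2 scale that sets the 75th percentile of each array to 0, where each step of 1 is a doubling of signal. A gene's probes are numbered from the brightest by mean signal over the 6 arrays. The signals of different probes are not read as relative amounts of RNA, because probes differ in how strongly they bind. The arrays were similar in brightness: between 49.3% and 57.7% of the spots were well above background, their 75th percentiles were signals of 987 to 1148, and no spot was saturated. Pearson correlations across probes were 0.974 to 0.985 among cKO arrays, 0.984 to 0.989 among control arrays and 0.948 to 0.984 between the genotypes. The 3 cKO arrays and control array 1 were on slide 1, and control arrays 2 and 3 on slide 2. A value within slide 1 therefore compares 3 cKO arrays with a single control and carries no test.

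Of the enzymes that make adenosine, Entpd1 (chr19:40814006-40814065) read 1.65, 1.30 and 1.62 in cKO cells and 1.40, 1.18 and 0.83 in control cells. Control array 1 lay above cKO array 2, so the groups overlapped. The difference was 0.39 (SE 0.18, 95% confidence interval −0.06 to 0.84, adjusted p = 0.255 in limma), within slide 1 it was 0.13 and without control array 3 it was 0.24. The second Entpd1 probe differed by 0.12, by −0.11 within slide 1 and by −0.0079 without control array 3.

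Nt5e (chr9:88266616-88266675) varied more within each genotype than between them. It read 4.00, 3.05 and 4.25 in cKO cells and 3.94, 3.46 and 4.13 in control cells. In both genotypes array 2 held the lowest value, and the cKO mean of 3.77 ± 0.63 (SD, n = 3) lay close to the control mean of 3.84 ± 0.35 (SD, n = 3). The difference was −0.08, with a 95% confidence interval of −0.92 to 0.76, which leaves room for nearly a doubling or a halving. The second, split probe at chr9:88264041-88265007 differed by 0.0034 and had the same lowest array in each genotype. With 1 array left out its difference ranged from −0.23, without cKO array 3, to 0.36, without cKO array 2.

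The A2a receptor gene Adora2a pointed in opposite directions at its 2 probes. The brighter probe (chr10:74797351-74797411) read −0.26, −0.48 and 0.45 in cKO cells and −0.68, −0.75 and −0.82 in control cells. All 3 cKO values lay above all 3 control values, and cKO array 3 stood highest. The difference was 0.66 (SE 0.24, unadjusted p = 0.0353, adjusted p = 0.198 in limma), and the exact permutation test gave p = 0.1, the smallest 2-sided value that 3 arrays against 3 allow. Without cKO array 3 the difference was 0.38. The second probe, whose sequence is given above, read −0.82, −0.75 and −0.86 in cKO cells and −0.98, −0.17 and −0.13 in control cells. Its difference was −0.38 (adjusted p = 0.359), and here control arrays 2 and 3, the arrays of slide 2, stood apart from the other 4. It ranged from −0.65, without control array 1, to −0.23, without control array 3. Within slide 1 both probes were higher in cKO cells, by 0.59 and 0.17. Averaged over both probes, the Adora2a difference was 0.14.

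Ada, which converts adenosine to inosine, has a single probe, and its groups overlapped. The probe (chr2:163552581-163552640, minus strand) read 1.54, 1.53 and 1.25 in cKO cells and 1.66, 1.64 and 1.49 in control cells. The difference was −0.16 (SE 0.13, 95% confidence interval −0.46 to 0.15, adjusted p = 0.465), and −0.06 without cKO array 3.

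Dpp4 encodes CD26, a surface peptidase of T cells that in humans anchors adenosine deaminase. Its brightest probe (chr2:62170062-62170121, minus strand) read 0.28, 0.75 and 1.52 in cKO cells and 0.21, 0.29 and −0.10 in control cells. cKO array 1 lay just below control array 2, while cKO arrays 2 and 3 were above every control. The difference was 0.72 (SE 0.32, adjusted p = 0.236), and 0.38 without cKO array 3. The second Dpp4 probe, which overlaps the first on the genome, differed by 0.68 and, without cKO array 3, by 0.34. Dpp4 probe 3 was well above background on 1 array of each genotype and was not tested.

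**Figure D1:**
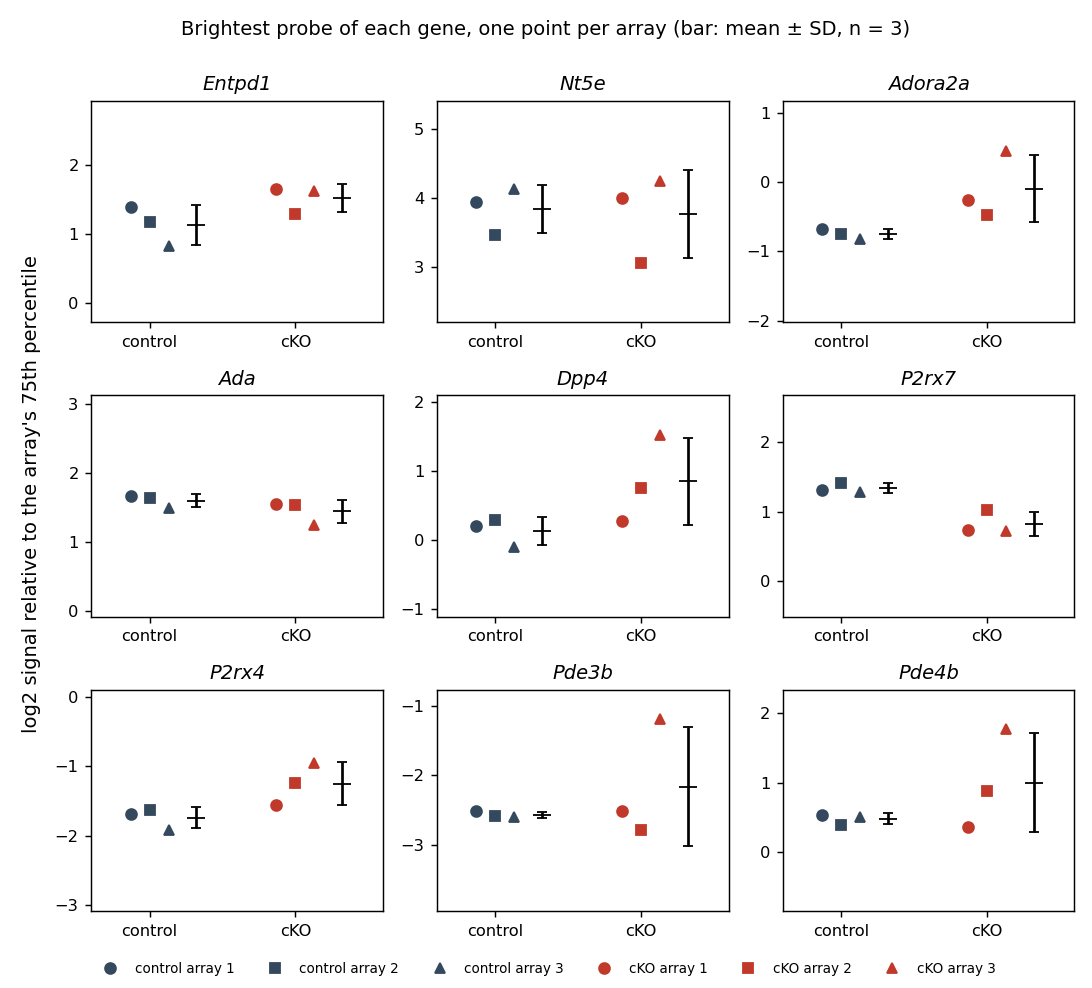
Log2 signal, scaled to each array's 75th percentile, at the brightest probe of each of the 9 genes, with 1 point per array (control in dark blue, cKO in red, marker shape for the array number) and the mean ± SD of each genotype (n = 3) as a bar. Every panel spans the same range of log2 units, and cKO array 3 (red triangle) is the highest of all 6 values in Nt5e, Adora2a, Dpp4, P2rx4, Pde3b and Pde4b.

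P2rx7 and P2rx4 are neighbours in the RefSeq gene order, both on the plus strand of chromosome 5, and their signals differed in opposite directions. P2rx7 (chr5:123134194-123134253) read 0.73, 1.03 and 0.71 in cKO cells and 1.31, 1.42 and 1.28 in control cells. All 3 cKO values lay below all 3 control values. The gap of 0.25 between the groups was larger than the range of the controls (0.14) and smaller than that of the cKO arrays (0.31). The difference was −0.51 (SE 0.13, 95% confidence interval −0.82 to −0.21, unadjusted p = 0.00588, adjusted p = 0.128 in limma; exact permutation p = 0.1). Within slide 1 it was −0.49, and with any 1 array left out it stayed between −0.62 and −0.46. The second, intron-spanning probe read −3.07, −2.25 and −2.69 in cKO cells and −2.22, −2.22 and −2.27 in control cells. Its difference was −0.43 (adjusted p = 0.262), and cKO array 2 lay among the controls. With 1 array left out it ranged from −0.64, without cKO array 2, to −0.23, without cKO array 1. The array annotates the probes to different transcripts, NM_011027 for the first and NM_001038845 for the second.

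P2rx4, the gene of a slowly desensitizing ATP-gated channel, read −1.56, −1.23 and −0.95 in cKO cells and −1.69, −1.63 and −1.92 in control cells (chr5:123178612-123178671). The genotypes did not overlap, although cKO array 1 and control array 2 were close to each other. The difference was 0.50 (SE 0.18, unadjusted p = 0.0332, adjusted p = 0.194 in limma; exact permutation p = 0.1), and 0.44 within slide 1. The second probe read −2.78, −2.16 and −1.96 in cKO cells and −2.88, −2.74 and −3.15 in control cells. There cKO array 1 lay just under control array 2, and the difference was 0.63 (unadjusted p = 0.0369, adjusted p = 0.201).

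In both phosphodiesterase genes cKO array 3 held the highest value at the brightest probe, and in Pde3b it alone lay above every control. Pde3b, whose product degrades cAMP and is known to be kept low in regulatory T cells, read −2.52, −2.79 and −1.18 in cKO cells and −2.52, −2.58 and −2.60 in control cells (chr7:121679667-121679726). cKO array 1 lay level with the highest control and array 2 below all of them, while array 3 was far above them. The difference of 0.40 (SE 0.41, adjusted p = 0.554) became −0.09 without cKO array 3. A second probe annotated to Pde3b, on the opposite strand, was not well above background on any array.

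Pde4b, the gene of a phosphodiesterase recruited to the T cell receptor, read 0.35, 0.87 and 1.77 in cKO cells and 0.54, 0.39 and 0.50 in control cells (chr4:102278153-102278211). cKO array 1 was the lowest of the 6, cKO array 3 the highest, and cKO array 2 also lay above every control. The difference was 0.52 (SE 0.35, adjusted p = 0.379), 0.14 without cKO array 3 and 0.84 without cKO array 1. Its probes 2 and 3 differed by 0.64 and 0.45, with the same order of the cKO arrays, and by 0.24 and 0.11 without cKO array 3. Probes 4 and 5, which lie far upstream on the genome, were not well above background on any array.

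**Figure D2:**
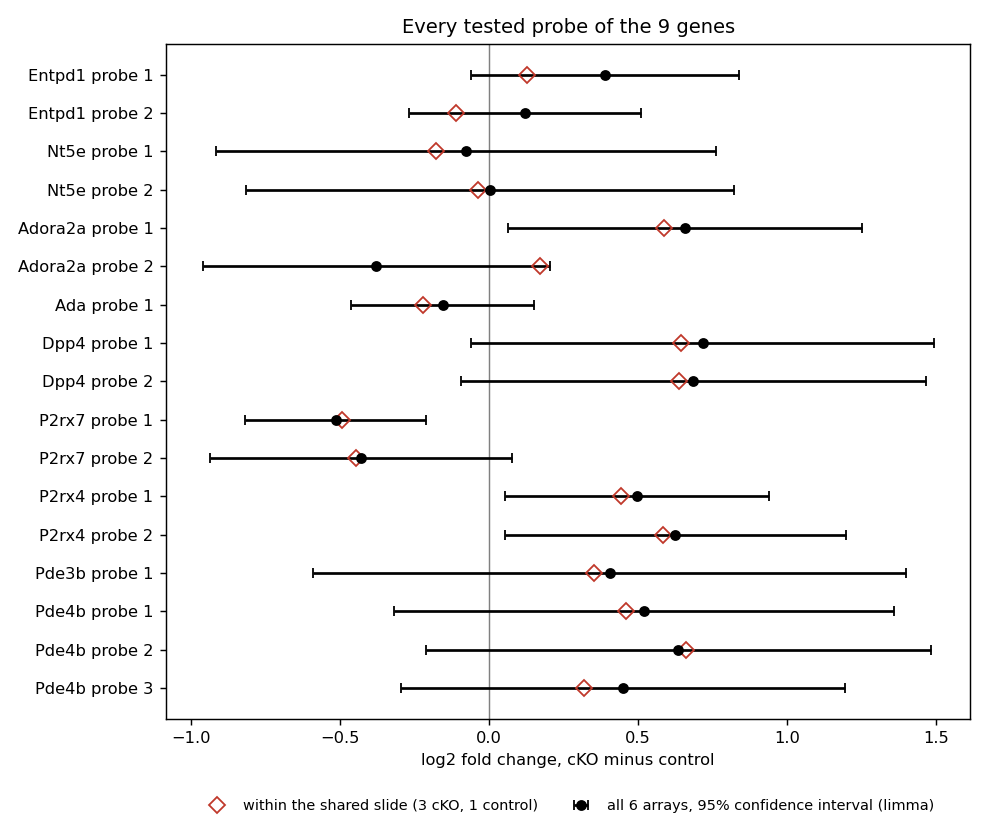
Log2 fold change (cKO minus control) of all 17 tested probes of the 9 genes, with the 95% confidence interval from limma in black and the value within slide 1 as an open red diamond. The intervals of P2rx7 probe 1, Adora2a probe 1 and both P2rx4 probes leave out 0, and Entpd1 probe 2, Nt5e probe 2 and Adora2a probe 2 change side within the slide.

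Counted together, 3 of the 9 genes had an unadjusted p under 0.05 at their brightest probe. Of these, 2 were higher in cKO cells (Adora2a and P2rx4), against 11.5% of all tested probes with such a p and that direction, and 1 was lower (P2rx7), against 11.4%. The same 3 genes were those whose genotypes did not overlap: 2 lay above the controls, as 15.9% of all tested probes did, and 1 below, as 20.7% did. For Adora2a these counts depend on the choice of probe. Its probe 1 was the brighter over all 6 arrays (mean −0.42 against −0.62), but probe 2 was the brighter in control cells (−0.43 against −0.75). At probe 2 Adora2a was lower in cKO cells (−0.38, unadjusted p = 0.164 in limma) and its groups overlapped. Of the 21 probes, 17 were well above background on at least 3 arrays and were tested. An unadjusted p under 0.05 was reached by 4 of the 17 (23.5%), 3 higher and 1 lower, beside 23.0% of all tested probes. Both P2rx4 probes are among the 4. The 9 genes had a median difference of 0.40, with 6 higher and 3 lower, beside a median of −0.04 over all tested probes, of which 44.8% had a value above 0. The median of the 9 genes was 0.14 without cKO array 3, 0.58 without cKO array 1, 0.20 with array weights and 0.26 with the mean over each gene's tested probes.

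The 9 genes varied more among the cKO arrays than among the controls. The median SD at the brightest probe was 0.486 in cKO cells and 0.0951 in control cells, and the cKO SD was the larger in 8 of the 9 genes. Over all tested probes with a value on every array these medians were 0.226 and 0.115, and the cKO SD was the larger in 72.9%. cKO array 3 held the highest cKO value in 6 of the 9 genes, and control array 3 the lowest control value in 7. These counts describe the 9 genes only and are given without a share over all tested probes.

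**Figure D3:**
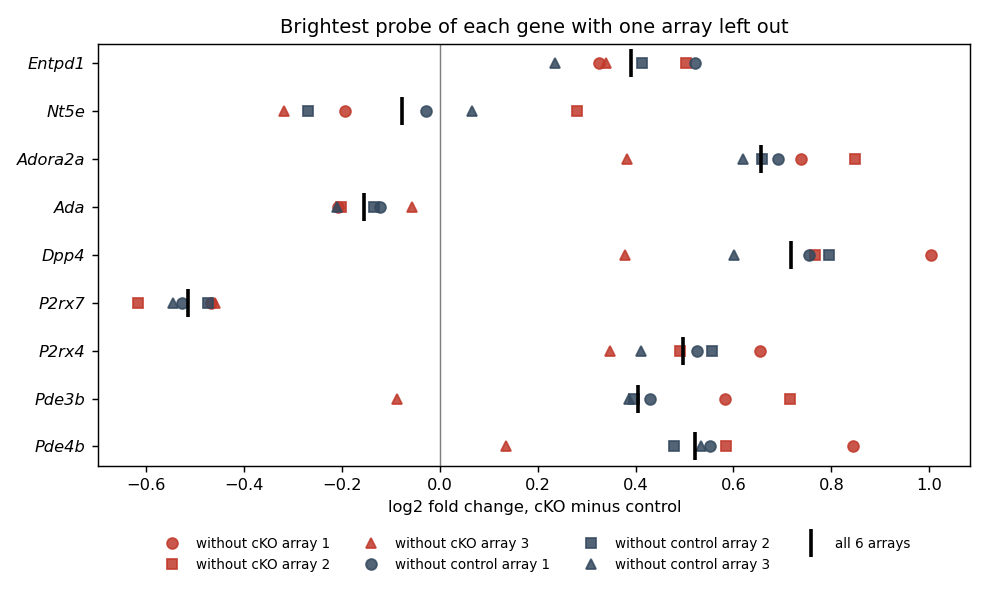
Log2 fold change (cKO minus control) at the brightest probe of each gene, with all 6 arrays (black bar) and with each array left out (red for a cKO array, dark blue for a control, marker shape for its number). P2rx7 stays between −0.62 and −0.46, while leaving out cKO array 3 brings Pde3b to −0.09 and Pde4b to 0.14, and leaving out cKO array 2 brings Nt5e to 0.28.

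Markers of the cells themselves were read on the same scale. Foxp3, the transcription factor that defines regulatory T cells, read 3.16, 3.12 and 2.45 in cKO cells and 3.42, 3.42 and 3.76 in control cells. Its difference was −0.62 (unadjusted p = 0.0321, adjusted p = 0.192 in limma), with cKO array 3 lowest. Without that array the difference was −0.39. Cd4 differed by 0.66 and Ctla4 by 0.94. The CD3 chains of the T cell receptor complex were split, with Cd3e at −0.28, Cd3d at 0.38 and Cd3g at 0.74 (0.47 without cKO array 3). Of 14 T cell and Treg markers, 13 were on the array and tested, and 7 had an unadjusted p under 0.05, 5 higher and 2 lower. None of the 13 passed the adjusted threshold in limma. Of all tested probes, 11.5% were higher and 11.4% lower at that unadjusted p, and the counts of the other marker lists below stand beside the same shares. Their summed linear signal, in multiples of the 75th percentile, was 353, 390 and 414 in cKO cells and 346, 341 and 294 in control cells. Each such sum weights a list by the brightness of its probes and is compared between arrays only. The probe with the highest mean signal over the 6 arrays was that of Tnfrsf18.

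Markers of other cells were summed in the same way. The 6 CD8 T and NK cell markers summed to 64.0, 62.4 and 61.5 in cKO cells and 51.1, 44.1 and 31.2 in control cells, with the brightest probe that of Nkg7, a cytotoxic granule gene (52.1, 57.1 and 48.4 against 44.0, 38.5 and 24.6). In the same list Cd8a differed by −0.86 (−0.49 without cKO array 3) and Klrd1 by 1.88. Cd8b1 differed by −0.18 (−0.05 without cKO array 1 and −0.32 without cKO array 3). In that list 2 of 4 tested genes had an unadjusted p under 0.05, both higher, and Klrb1c was not well above background on any array. The 6 epithelial markers summed to 1.71, 1.55 and 2.10 against 1.05, 1.05 and 1.10, with Cdh1 the brightest on average, 2 of 4 tested higher at that p and Krt8 and Krt19 not above background. The 6 erythroid markers, with Hbb-b1 the brightest on average and Alas2 not above background, summed to 0.565, 0.543 and 1.16 against 0.337, 0.448 and 0.251. Hbb-b1, the 1 erythroid marker tested, was higher at that p, while Hba-a1, another globin gene, was well above background on 2 control arrays and 0 cKO arrays and was not tested. The 6 B cell markers, with Cd79b the brightest and Pax5 not above background, summed to 0.592, 0.775 and 1.42 against 0.676, 0.709 and 0.450, and 0 of 2 tested passed it in limma. The 7 myeloid markers, with Cd68 the brightest on average (Lyz2 was brighter on control array 3) and Adgre1 and Itgax not above background, summed to 0.287, 0.350 and 0.357 against 0.249, 0.267 and 0.425, with 1 of 2 tested (Cd68) higher at that p. The sums of the T cell and Treg, B cell, epithelial and erythroid lists were highest on cKO array 3, as were Nt5e, Adora2a, Dpp4, P2rx4, Pde3b and Pde4b. Their part in the values of the 9 genes was not tested.

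The other genes of the pathway were read from a list of 90, of which 88 were on the array and 57 were tested at their brightest probe. Of these, 16 (28.1%) had an unadjusted p under 0.05, 11 higher and 5 lower in cKO cells, beside 23.5% of all genes at their brightest probe. Bst1 (below) was tested only because it was above background in cKO cells, and without it 15 of 56 (26.8%) had such a p, 10 higher and 5 lower. The median difference was −0.03 over the list, with 27 higher and 30 lower. One gene passed the adjusted threshold: Prkar2b, a regulatory subunit that holds protein kinase A inactive until cAMP binds it, fell by 1.54 on the log2 scale (SE 0.15, adjusted p = 0.0444 in limma). It read −1.03, −0.72 and −1.07 in cKO cells and 0.51, 0.48 and 0.80 in control cells, with no overlap. Within slide 1 it differed by −1.45. The call held under 8 of 19 alternatives, whose adjusted p ran from 0.0135 to 0.442. It was lost with slide as a term (adjusted p = 0.291), with the replicate number as a block (adjusted p = 0.225) and with each array left out in turn (adjusted p = 0.0564 to 0.185), although the difference then stayed between −1.65 and −1.44.

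Among the genes that handle nucleotides outside the cell, 2 of the 7 tested ectonucleotidases that were above background in both genotypes had an unadjusted p under 0.05, both higher in cKO cells (11.5% of all tested probes were higher at that p). Cd38, which consumes extracellular NAD, read −0.90, −0.79 and −0.38 against −1.62, −1.60 and −1.67, a difference of 0.94 (adjusted p = 0.075). Enpp1, which hydrolyses ATP to AMP and pyrophosphate, differed by 0.90. Bst1, a relative of Cd38, was well above background on all 3 cKO arrays and on none of the controls, so it could pass the filter only where it was high and its p is not given. It read −3.17, −2.94 and −0.99 in cKO cells, and its signal was at least 4.36-fold higher there than in control cells, or at least 2.70-fold without cKO array 3. This bound sets each control array at the lowest signal that was well above background there, or at the probe's own signal where that was higher.

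Of the other receptors, Adora1 and Adora2b differed by −0.68 and −0.32 (for Adora2b, −0.60 to −0.13 with 1 array left out) without passing either threshold. Within slide 1 the Adora1 difference was −0.08. P2ry1, the gene of a metabotropic ADP receptor, read −1.30, −1.98 and −3.43 in cKO cells and 0.15, −0.04 and 0.78 in control cells. The groups were well apart, and the difference was −2.53 (SE 0.55, adjusted p = 0.116). P2rx2, the 1 other P2X gene tested of 5, differed by 0.01, and by 0.47 within slide 1. Of the 13 tested genes for nucleoside removal and transport, such as the transporter gene Slc29a1 (−0.39, and −0.57 to −0.13 with 1 array left out) and Adk, which recaptures adenosine as AMP (−0.16, and −0.24 to −0.09), 0 had an unadjusted p under 0.05 in limma, beside 23.0% of all tested probes, and 10 had a value below 0, beside 55.2% of them. Neither ATP release channel tested passed either threshold. With 1 array left out, Panx1 (−0.03) ranged from −0.10 to 0.03 and Lrrc8a (0.11) from 0.01 to 0.23. None of the 4 tested relatives of Dpp4 (−0.29 to 0.18) passed either threshold.

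Inside the cell, 3 of the 9 other phosphodiesterases tested had an unadjusted p under 0.05, all higher in cKO cells, among them Pde2a (0.93) and Pde4a (0.61, and 0.03 to 0.78 over its 3 tested probes), beside 11.5% of all tested probes higher and 11.4% lower at that p. In 7 of the 9 the value was above 0, beside 44.8% of all tested probes. Of the adenylyl cyclase group, 3 of 5 tested had such a p: Adcy9 was lower (−1.18), and Adcy6 (0.65) and 1 more were higher. Of 11 tested genes for protein kinase A, its targets and other cAMP sensors, 3 were higher and 3 lower at that p, and 6 had a value above 0 and 5 below it. Rapgef3, the cAMP-activated exchange factor EPAC1, read −2.36, −1.47 and 0.85 against −3.16, −3.63 and −4.32, with cKO array 3 highest (difference 2.71, SE 0.82, adjusted p = 0.161). Crem, a cAMP-responsive transcription factor gene, read 1.71, 2.34 and 3.16 against 1.34, 1.24 and 0.89 (difference 1.25, adjusted p = 0.156), and its 6 tested probes differed by 0.54 to 1.31. Prkar2a, another regulatory subunit of protein kinase A, was lower at both of its tested probes (−0.85 and −0.68). Atf1, a factor of the CREB family, was lower at all 3 (−0.41 to −0.34). Without cKO array 3, Rapgef3 differed by 1.78, and Prkar2a and Atf1 by −0.57 and −0.22 at their brightest probes.

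**Figure D4:**
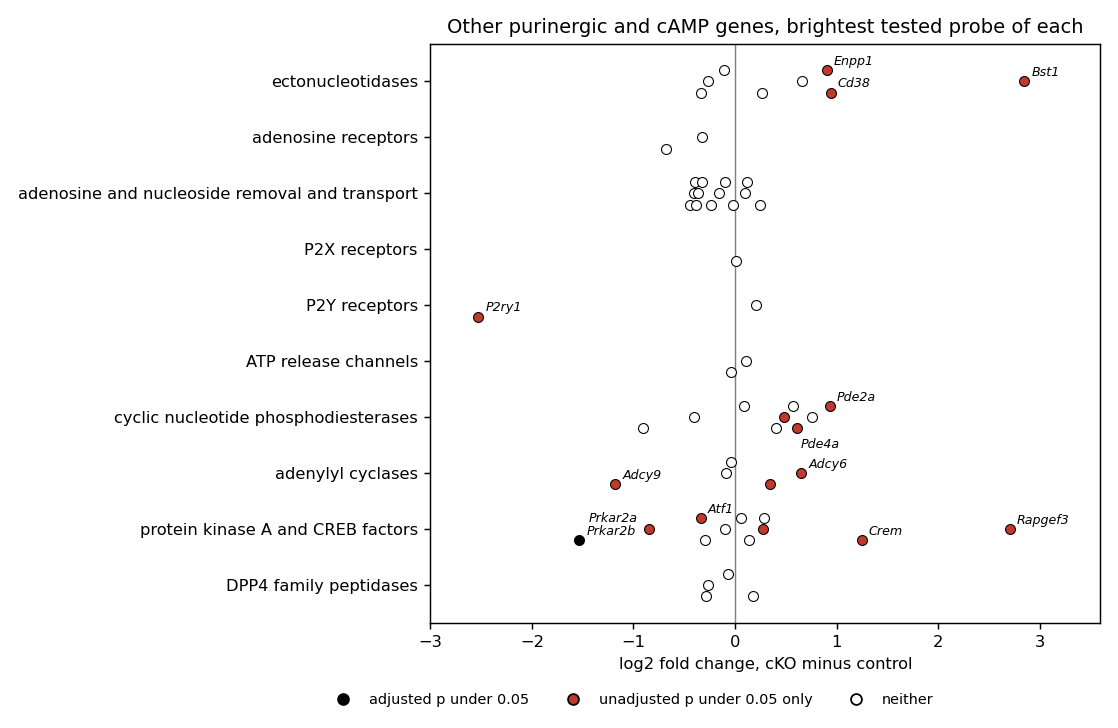
Log2 fold change (cKO minus control) of the 57 tested genes of the wider purinergic and cAMP list, grouped by role, at the brightest tested probe of each. The filled black point is Prkar2b, red points have an unadjusted p under 0.05 only and open points neither, and named points are the 8 highest and all 5 lowest with such a p. Bst1, not above background in control cells, is drawn at its fitted value.

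Many probes of the array followed an order over the 6 arrays like that of a gene studied here. The probe most like P2rx7 was that of Ckap2, a spindle gene, with a Pearson r of 0.999, and 169 tested probes correlated with P2rx7 above 0.95. For P2rx4 and Dpp4 these were 851 and 736 probes, led by AK040646 (r = 0.999) and Tpd52 (r = 0.998). Adora2a had 543 such probes, led by Whsc1l1 (r = 0.997), Pde4b 378, led by Vps13c (r = 0.997), and Pde3b 205, led by E130102H24Rik (r = 0.995). Ada had 164, led by Fam43a (r = 0.998). The adenosine-forming enzymes had few, 27 for Entpd1, led by Klrk1 (r = 0.991), and 20 for Nt5e, led by Immp2l (r = 0.989). These correlations run over 6 arrays that share genotype, slide and scaling, and are a description only.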

How the data were processed

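Total RNA of iTreg cultures from 3 cKO and 3 control mice was labelled with Cy3 by the authors, hybridised to one-colour Agilent arrays and extracted with Feature Extraction (version 10.7.3.1 in the file headers, 9.1 in the submitters' processing notes). The deposited values are linear spot intensities, background-subtracted but not normalized between arrays, and a table of log2 values made by the authors, whose normalization is not given in the sources used here. Array medians of that table were 6.15, its Pearson r with the scanner values of the same array was 0.998 or higher, and it served as an alternative. Where the labels and the methods of the study differ (IL-2 dose, RNA kit), the labels were followed.

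Outlier spots (123 to 140 per array) were dropped, and the log2 of the 75th percentile of each array's non-control spots was subtracted from the log2 processed signal. Probes well above background on at least 3 arrays were tested with limma 3.58.1 (lmFit, eBayes; R 4.3.3) on all 6 arrays, with Benjamini-Hochberg adjustment over 22281 probes. Single values were compared by exact permutation. Counts of genes use the brightest tested probe of each. Symbols and mm9 positions come from the array's annotation. Of 21 probes, 18 matched a RefSeq table (GRCm38.p6), all to the same symbol; exons were not assigned. All 9 genes were named at every probe. Of the pathway list, genes past the adjusted threshold were named, with the 8 largest changes in each direction at an unadjusted p under 0.05; other pathway and marker genes were named after their values were seen. The genes and lists were chosen with earlier results of these data known. The steps were tested on simulated data. Alternatives (22, the leaving out of each array included) covered background correction, scaling, filters, tests, array weights, slide and replicate number. Python 3.11.15, pandas 2.3.3 and matplotlib 3.10.9 were used for tables and plots.

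Each mouse gave 1 array, so the number of arrays limits the precision. All columns of the log2 table were assigned to a sample.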

Additional observations from a re-analysis of the deposited data

How the results depend on the processing

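The 9 genes kept the sign of their difference under the 20 alternatives that gave each of them a value (at the brightest probe in all but 1, which averaged a gene's probes), except for Nt5e, which turned to 0.28 without cKO array 2 and to 0.07 without control array 3, and for Pde3b, which turned to −0.049 with array weights and to −0.086 without cKO array 3. Over the arrays left out, Nt5e ranged from −0.32 to 0.28 and Pde3b from −0.086 to 0.72. The number of the 9 genes past the adjusted threshold was 1 with array weights (P2rx7, adjusted p = 0.048, against up to 0.686 under the other alternatives, with a difference of −0.44) and 0 under all others, each array left out included. Array weights gave cKO array 3 the lowest weight (0.173) and control array 2 the highest (5.05). The 3 genes with an unadjusted p under 0.05 became 1 with the methods' t-test, 0 with slide as a term (the term leaves control array 1 as the only control that bears on the difference) and 1 to 5 with 1 array left out: 5 without cKO array 1, 2 without cKO array 3 or control array 1, and 1 without control array 2 or control array 3. With the replicate number as a block it was 1. The numbers do not pair the arrays (correlations of deviations −0.14, 0.01 and −0.19).

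The 16 pathway genes with an unadjusted p under 0.05 became 7 with slide as a term and 12 to 21 with 1 array left out. The median difference of that list, −0.03, was 0.022 with normexp and quantile normalization, 0.13 with normexp and the 75th percentile, 0.00065 with quantile normalization, 0.0097 with the authors' table, and 0.0064 with slide as a term or within slide 1. It ranged from −0.074 to 0.0094 with 1 array left out. Normexp with the 75th percentile moved the median of all tested probes to 0.11. The number of tested probes with an adjusted p under 0.05, 54, was 112 and 0 with normexp and quantile or 75th-percentile scaling, 26 with quantile normalization, 77 with the median, 28 with the authors' table, 0 without a filter, 174 with probes above background on all arrays, 0 with the t-test, 105 with trend and robust fitting, 2205 with array weights, 0 with the replicate block or slide, 0 or 1 with 1 array left out and 457 at an adjusted p under 0.10. In an alternative chosen after seeing the data, which leaves out a probe with any outlier spot, it was 32. Unadjusted, 1646 probes had a p under 0.05 with slide as a term, 3627 with the block, 4705 without a filter, 1659 with normexp and the 75th percentile, 4018 with the t-test and 2865 to 6465 with 1 array left out, against 5120. The cause of these shifts was not tested.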
